A study of Mus musculus with 12 samples.

Results

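Macrophages take up modified lipoproteins, microbes and dying cells through a loose group of surface receptors, and 10 genes of this group were followed in mouse peritoneal macrophages: the scavenger receptor genes Msr1, Cd36, Marco, Cd163, Stab1, Scarb1 and Scarb2, the receptor tyrosine kinase genes Mertk and Axl, and Gas6, which encodes their ligand. They were taken by gene symbol, through probe sets (groups of array probes summarised to 1 value) that carry exactly 1 symbol. All 10 of the 10 were found, each with 1 probe set, among 19938 genes measured. RNA levels were read on 12 one-colour Affymetrix arrays, 3 in each of 4 groups. These were Nfkbiz-/- cells (KO) given lipopolysaccharide (LPS, a bacterial cell-wall component sensed by TLR4) at 1 µg/ml for 4 h, C57Bl/6 wild-type cells (WT) given the same LPS, untreated KO cells, and untreated WT cells. All cells were washed from the peritoneum of female mice, plated and cultured briefly without a stated sort. Nfkbiz encodes IκBζ, a nuclear IκB protein that LPS induces. The labels give no age, do not say which exons the allele lacks, and are silent on whether replicate arrays stand for different animals. The p-values therefore cover the spread among arrays, which may be technical.

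Scavenger receptors bind oxidised or acetylated lipoproteins, polyanions and bacterial surfaces, and several of them recycle lipid or deliver cargo to lysosomes. Uptake of apoptotic cells, called efferocytosis, depends on recognition of phosphatidylserine on the dying cell. The kinases MerTK and AXL see it through bridging proteins, GAS6 or protein S. In the mouse, MerTK is the kinase that resident macrophages mainly use for apoptotic cells, whereas Axl is known as a gene that interferon and other inflammatory signals raise.

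The 3 genes that differed between genotypes after LPS were Mertk, Axl and Scarb2, and their promoters are shown because these results turn on them. RefSeq promoter windows (assembly GRCm38.p6, 250 bases before the annotated start to 50 after it, written 5′ to 3′ on the gene's strand) were found for 8 of the 10 genes. Mertk lies at chr2:128698665-128698964 on the plus strand, Axl at chr7:25788684-25788983 on the minus strand and Scarb2 at chr5:92505608-92505907 on the minus strand. Capitals mark every match, on either strand, to 6 motifs: the κB consensus, the interferon-stimulated response element (GAAA, any 2 bases, GAAA), TTCNNNGAA (STAT site), TGANTCA (AP-1 site), GAGGAA (PU.1 core) and GGGCGG (GC box).
Mertk: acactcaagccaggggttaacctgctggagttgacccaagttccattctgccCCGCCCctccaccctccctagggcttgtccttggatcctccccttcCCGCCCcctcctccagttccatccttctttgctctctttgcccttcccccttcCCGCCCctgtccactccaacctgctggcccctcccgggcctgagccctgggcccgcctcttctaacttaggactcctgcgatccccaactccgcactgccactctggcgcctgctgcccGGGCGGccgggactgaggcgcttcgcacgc
Axl: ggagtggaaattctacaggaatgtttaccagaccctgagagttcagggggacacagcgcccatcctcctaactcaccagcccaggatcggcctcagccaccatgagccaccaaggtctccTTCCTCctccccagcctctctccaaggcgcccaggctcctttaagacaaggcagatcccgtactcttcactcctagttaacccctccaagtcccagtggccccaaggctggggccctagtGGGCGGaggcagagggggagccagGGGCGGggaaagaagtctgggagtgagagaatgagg
Scarb2: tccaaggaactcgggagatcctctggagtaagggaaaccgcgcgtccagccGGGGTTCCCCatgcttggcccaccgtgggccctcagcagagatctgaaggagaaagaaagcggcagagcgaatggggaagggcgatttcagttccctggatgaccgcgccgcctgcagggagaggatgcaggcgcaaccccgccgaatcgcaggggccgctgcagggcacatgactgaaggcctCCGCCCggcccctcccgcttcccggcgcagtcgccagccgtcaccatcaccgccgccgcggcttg
The Mertk window held 4 GC boxes and none of the other motifs. Axl held 2 GC boxes and 1 PU.1 core on the opposite strand. In the Scarb2 window, 1 κB consensus match began at -199, counted with the annotated start as position 0, and 1 GC box stood nearer the start. Among the 32851 promoter windows of the table, 8.46% held a κB match, 3.44% the interferon element, 8.3% the STAT site, 7.81% the AP-1 site, 28.3% the PU.1 core and 35.7% a GC box. Windows of genes not called between genotypes held such matches too. Gas6 had 4 GC boxes, Cd36 had 2, Marco and Stab1 had 1 PU.1 core each, and Cd163 had none of the 6 motifs. A match describes letters and is no measure of binding.

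The targeted gene and the cell type were checked first. Nfkbiz read 1568.5, 1335 and 1633.5 in LPS-treated KO cells, against 3371, 3786 and 3079.5 in LPS-treated WT cells, and it read below WT on every untreated KO array as well. Signal remained in KO, where LPS still raised it 5.47-fold (limma adjusted p = 2.41e-08), and whether the probe set lies in the deleted part is not given. All 8 measured macrophage markers, such as Adgre1, Csf1r and Lyz2, lay above the median probe set in each group. Their summed intensity was 53984 to 54913 in KO with LPS, 54715 to 55283 in WT with LPS, 61545 to 63214 in untreated KO and 62097 to 64414 in untreated WT. In these bulk samples, fewer cells of a type and less RNA per cell cannot be told apart. Some libraries stood apart from the rest. The mean log2 level of 19 interferon-stimulated genes was 9.79 on the third LPS-treated WT array against 11.46 and 12.27 on the others, and 10.66 on the third untreated KO array against 9.15 and 8.87. Both arrays of KO replicate 2 also stood apart at several uptake genes, among them Scarb1, Cd36, Timd4, Cd300a and Itgb5.

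Mertk changed in opposite directions with LPS in KO and WT cells. It read 4046, 4704 and 4302 in LPS-treated KO cells, 1511, 2088 and 1780.1 in LPS-treated WT cells, 2752, 2791 and 3185 in untreated KO cells, and 2786, 2792 and 3038 in untreated WT cells. The untreated groups overlapped, every LPS-treated KO array stood above them, and every LPS-treated WT array stood below them. LPS raised Mertk in KO (log2 difference 0.58, SE 0.11, limma adjusted p = 0.00146) and lowered it in WT (-0.69, SE 0.11, limma adjusted p = 0.000666). The difference of both responses, the interaction, was 1.27 (SE 0.16, limma adjusted p = 0.0053), a ratio of 2.42, and Mertk ranked 19 of 19938 genes in it by p. Mertk was the only member called in the interaction, 1 of 10, where 0.747% of all genes were called, 0.301% higher and 0.446% lower, at an adjusted p under 0.05 as throughout. Its call and its sign in the interaction held in all 20 alternative fits, at 1.15 to 1.39 with 1 array left out and adjusted p up to 0.0266 over all of them.

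After LPS, Mertk was 2.44 times as high in KO as in WT (log2 difference 1.29, SE 0.11, limma adjusted p = 0.000103). Before LPS it differed by 0.02, with a 95% interval of -0.23 to 0.26. Over all genes, 16 were called lower with LPS in WT and higher with LPS in KO (0.0802%), and 9 of those (0.0451% of all genes), Mertk among them, also passed the interaction. Large peritoneal macrophages are a cell type that expresses Mertk strongly, and 9 of their 11 listed markers were measured. Their summed intensity was 22744 to 25442 in KO with LPS, against 18012 to 19785 in WT with LPS. Prg4 and Alox15 made up most of the sum, and Gata6, the factor that defines these cells, went the other way after LPS, with a mean of 1178.5 in KO and 1969.6 in WT. In untreated cells, where Mertk overlapped between genotypes, the sum was 23040 to 26869 in KO and 19536 to 22781 in WT. The part of these markers in the Mertk result was not tested.

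**Figure D1:**
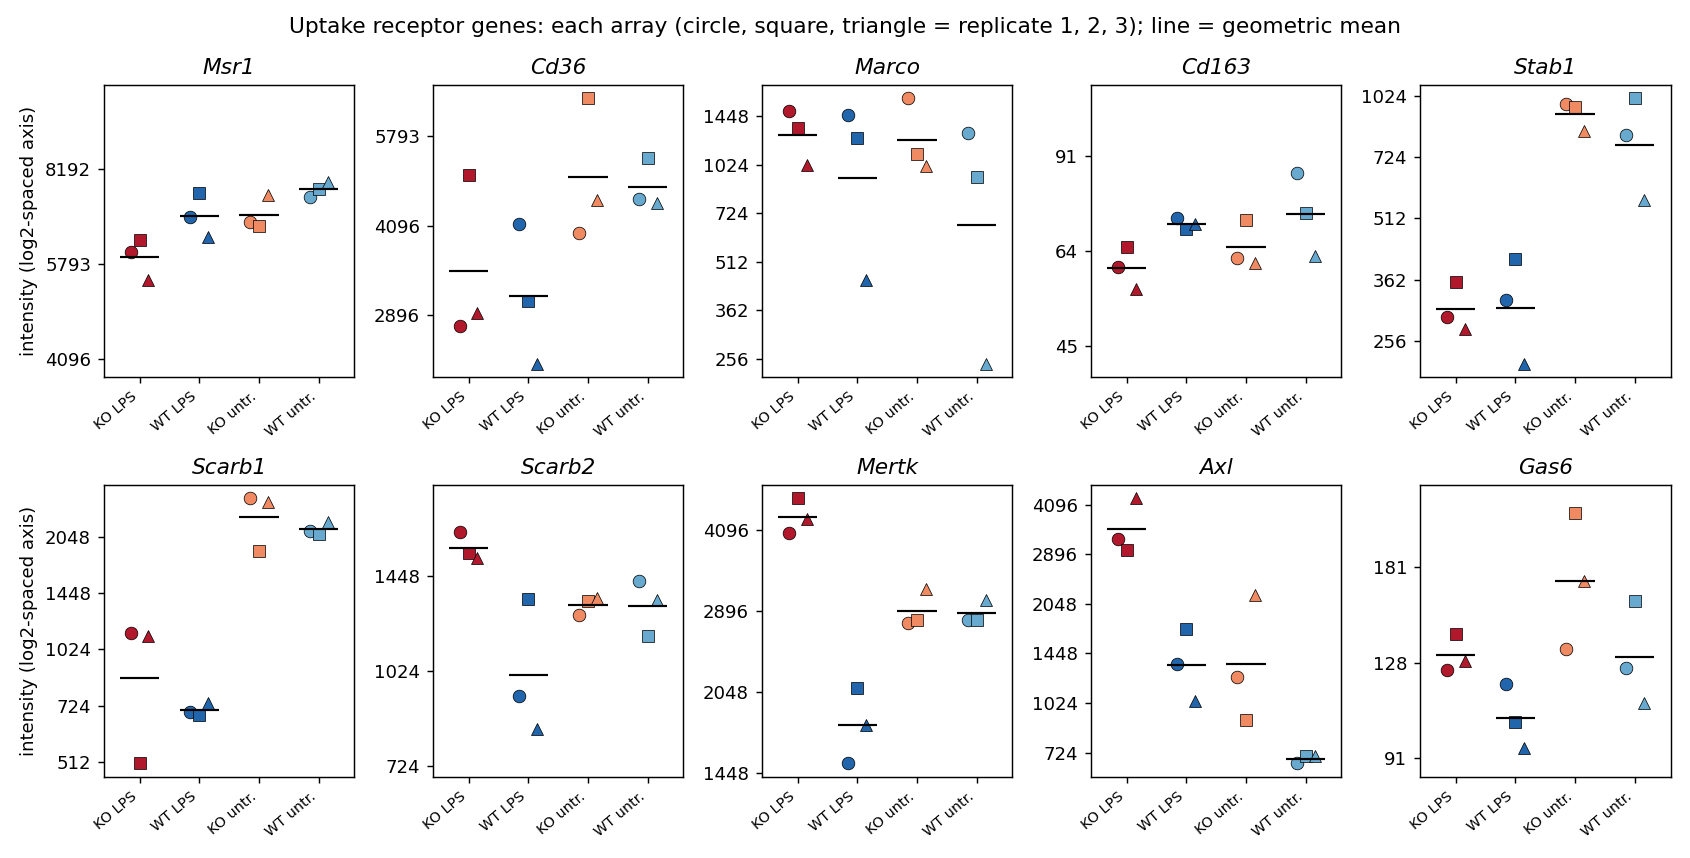
Intensity of the 10 genes on each of 12 arrays, on a log2-spaced y axis whose range differs by panel, with groups on the x axis (KO LPS, WT LPS, KO untreated, WT untreated) and a line at each group's geometric mean. Mertk stands at 4046 to 4704 in LPS-treated KO cells and at 1511 to 2088 in LPS-treated WT cells, with both untreated groups between them.

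Axl, the other kinase of the pair, rose with LPS in both genotypes and stood higher in KO. It read 3227, 2975 and 4291 in KO with LPS, 1346, 1722 and 1041 in WT with LPS, 1229, 909.5 and 2181 in untreated KO, and 672.3, 707.1 and 707.5 in untreated WT. No KO array of either treatment overlapped the WT arrays of the same treatment. The rise was 1.36 in KO (log2, SE 0.27, limma adjusted p = 0.00184) and 0.95 in WT (SE 0.27, limma adjusted p = 0.022). Leaving out 1 array ended the WT call 5 times, for LPS-treated WT replicate 1 (0.94) or 2 (0.77) or untreated WT replicate 1 (0.92), 2 (0.96) or 3 (0.96). After LPS, KO exceeded WT by 1.36 (SE 0.27, limma adjusted p = 0.0115), a call that was lost without LPS-treated WT replicate 3 (1.18, limma adjusted p = 0.0549). In untreated cells the difference of 0.95 did not pass (SE 0.27, limma adjusted p = 0.335), although the arrays did not overlap. The interaction was 0.41, with a 95% interval of -0.43 to 1.26.

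Axl levels ran alongside the interferon-stimulated genes. Their mean log2 level was 12.35, 12.38 and 12.57 in KO with LPS, 11.46, 12.27 and 9.79 in WT with LPS, 9.15, 8.87 and 10.66 in untreated KO, and 8.83, 8.77 and 8.08 in untreated WT. The array with the highest Axl was also the one with the highest interferon-stimulated level in LPS-treated KO, LPS-treated WT and untreated KO cells, but not in untreated WT cells. Of the 19 genes, limma called 0 between genotypes after LPS (7 at an unadjusted p under 0.05, median 1.025), beside 8.14% of all genes. In untreated cells it also called 0 (3 at an unadjusted p under 0.05, median 0.945), beside 0.0752%. LPS raised 17 in KO and 17 in WT, beside 21.9% and 9.53% of all genes. Axl intensity was 2975 to 4291 on the LPS-treated KO arrays, whose interferon-stimulated level was 12.35 to 12.57, and 1722 on LPS-treated WT replicate 2, whose level was 12.27. Without the 2 arrays whose interferon-stimulated level deviated, a fit chosen after seeing the data, Axl was 1.18 higher in KO after LPS (limma adjusted p = 0.00859), and untreated it was 0.60 higher (limma adjusted p = 0.361). The same fit gave 1.29 for Mertk after LPS (limma adjusted p = 0.00111) and 0.52 for Scarb2, which no longer passed (limma adjusted p = 0.0863). The part of the interferon-stimulated genes in the Axl result was not tested.

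**Figure D2:**
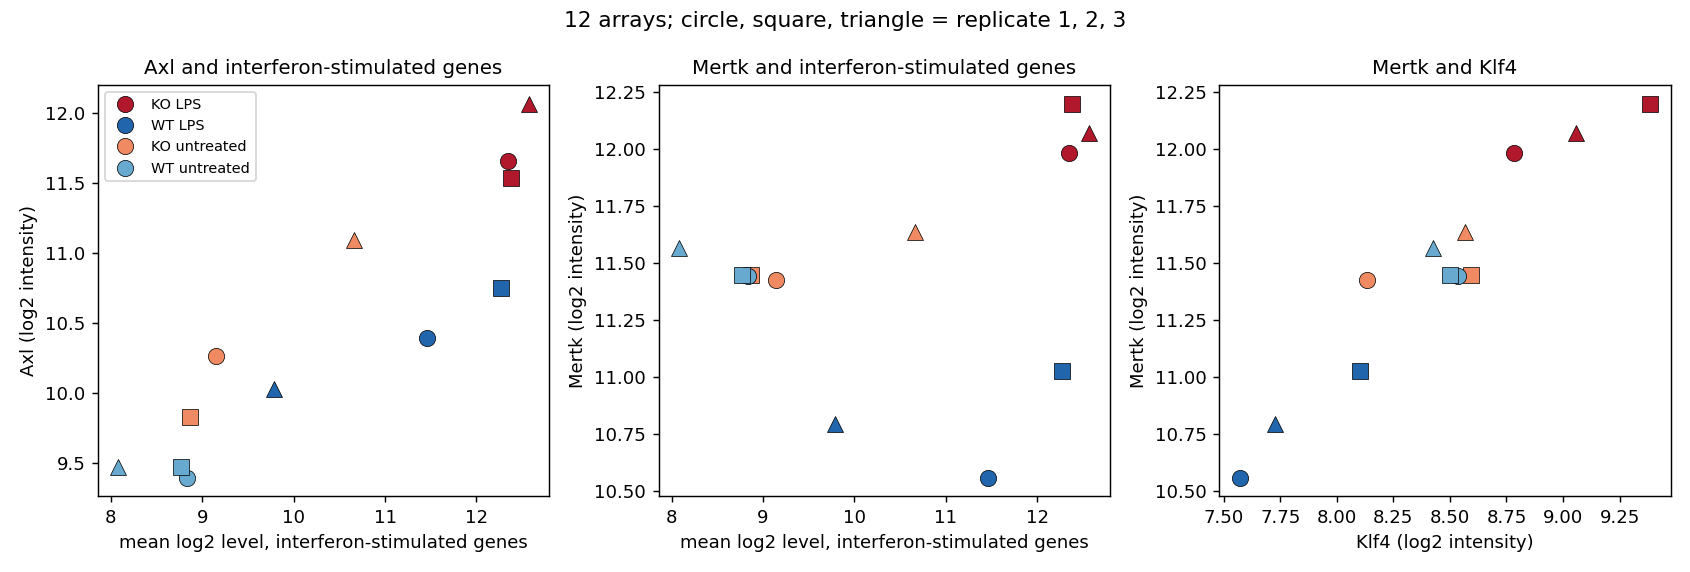
Each point is 1 of 12 arrays, coloured by group, with log2 intensity of Axl (left) or Mertk (middle) against the mean log2 level of 19 interferon-stimulated genes, and Mertk against Klf4 (right). The LPS-treated KO arrays lie at an interferon-stimulated level of 12.35 to 12.57, and the LPS-treated WT arrays spread over 9.79 to 12.27.

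Gas6, which encodes the bridging ligand of both kinases, was dim. It read 124.7, 141.9 and 128.7 in KO with LPS, 118.5, 103.3 and 93.8 in WT with LPS, 134.4, 220.1 and 171.9 in untreated KO and 125.6, 160.2 and 110.3 in untreated WT, beside array medians of 110.4 to 118.7. Its KO arrays lay above the WT arrays after LPS, where 10.3% of all genes did so, and the difference of 0.33 did not pass (SE 0.175, limma adjusted p = 0.317). With LPS it differed by -0.39 in KO (limma adjusted p = 0.0902) and by -0.32 in WT (limma adjusted p = 0.211). In a fit of the 6 KO arrays with the replicate number as a block, the KO value passed (-0.39, limma adjusted p = 0.029), as it did without untreated KO replicate 1 (-0.56, limma adjusted p = 0.0197). Pros1, the other bridging protein gene, and Tyro3, the third kinase of the family, were singled out after their values were seen. LPS lowered Pros1 by about the same amount in KO (-1.03, limma adjusted p = 0.00109) and in WT (-1.02, limma adjusted p = 0.00177), with an interaction of -0.01 (95% interval -0.61 to 0.58). Tyro3 stayed near the array medians, at 105 to 144 on all 12 arrays.

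Scarb2, which encodes LIMP-2, a lysosomal membrane protein that carries glucocerebrosidase, was the third gene that differed between genotypes after LPS. It read 1696, 1570.0 and 1543 in KO with LPS, 935.1, 1328 and 829.2 in WT with LPS, 1254, 1321 and 1338 in untreated KO, and 1421, 1163 and 1326 in untreated WT. The untreated groups overlapped, and the LPS-treated KO arrays were the highest of all 12. KO exceeded WT after LPS by 0.67 (log2, SE 0.14, limma adjusted p = 0.016), and the untreated difference was 0.005 (95% interval -0.31 to 0.32). The call after LPS was lost without LPS-treated WT replicate 1 (0.61, limma adjusted p = 0.0722) or 3 (0.52, limma adjusted p = 0.0657) and in the fit of the 6 LPS arrays alone (limma adjusted p = 0.0985). LPS-treated WT replicate 2 was the high one of its group. Neither response passed, at 0.30 in KO (limma adjusted p = 0.11) and -0.36 in WT (limma adjusted p = 0.0841), nor did the interaction of 0.66 (limma adjusted p = 0.178). With the replicate block in KO arrays the KO response passed (0.30, limma adjusted p = 0.0331), as it did in the fit of the 6 KO arrays alone (limma adjusted p = 0.0243). Without LPS-treated WT replicate 2 the KO response (0.30, limma adjusted p = 0.0194), the WT response (-0.56, limma adjusted p = 0.00201) and the interaction (0.86, limma adjusted p = 0.0117) all passed.

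Across the group, 3 of 10 genes were called between LPS-treated KO and WT cells, all higher in KO, where 8.14% of all genes were called, 3.28% higher and 4.87% lower. The median difference of the 10 was 0.31, beside -0.01 over all genes. Without LPS-treated WT replicate 3, only Mertk remained called. Without LPS-treated KO replicate 2, Scarb1 was also called higher (0.67, limma adjusted p = 0.0111). In untreated cells, limma called 0 of 10 (background 0.0752%, with 0.0351% higher and 0.0401% lower), and 2 had an unadjusted p under 0.05, Axl (0.0048) and Gas6 (0.0424). Every alternative fit gave 0 there too. Of the 10, Axl alone had its untreated KO arrays all above the WT arrays, as 4.88% of all genes did.

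**Figure D3:**
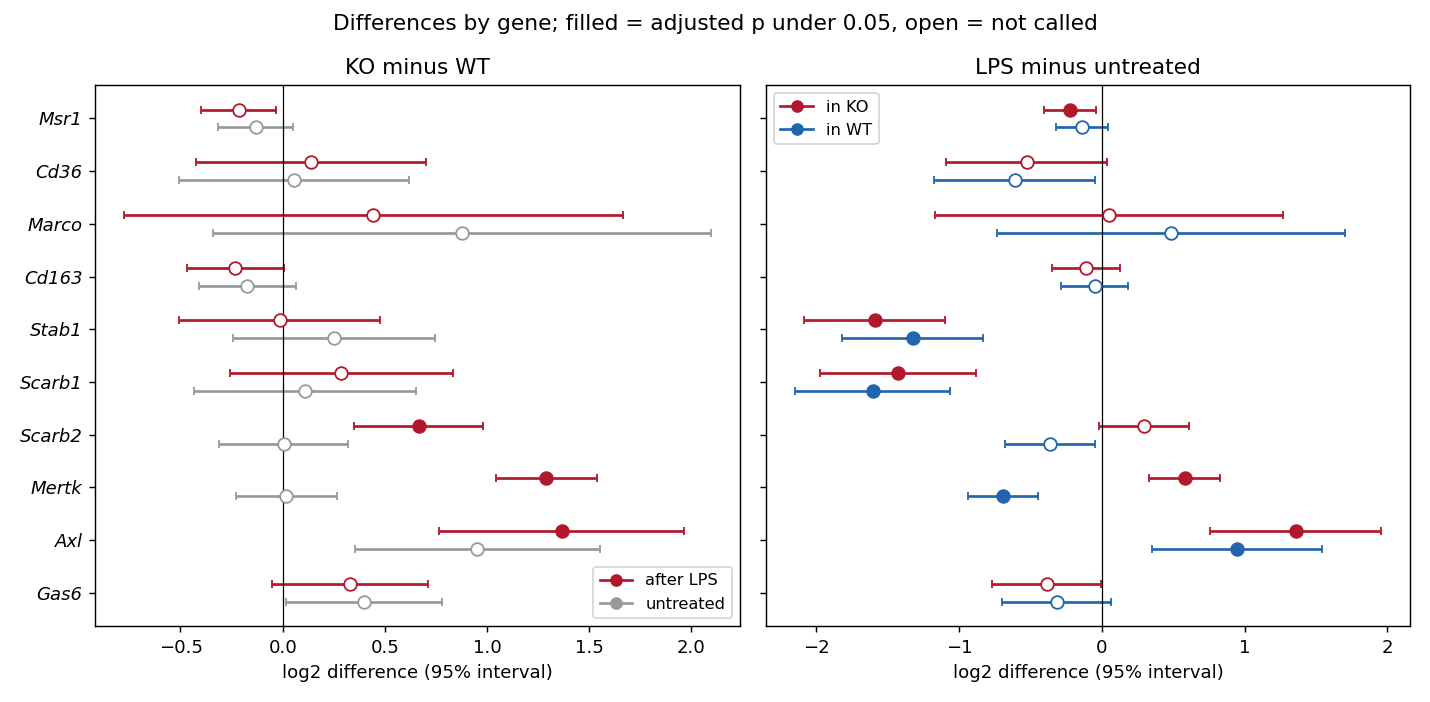
Log2 differences with 95% intervals for the 10 genes: KO minus WT after LPS and untreated (left), and LPS minus untreated in KO and in WT (right), with filled symbols for adjusted p under 0.05. Mertk lies at 0.58 in KO and -0.69 in WT on the right, while Stab1 and Scarb1 lie below -1 in both genotypes.

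Stab1 and Scarb1 fell with LPS in both genotypes. Stab1 encodes stabilin-1, a clearance receptor for modified lipoproteins and matrix fragments. Its intensity was 293.0, 356.6 and 274.9 in KO with LPS, 322.3, 407.5 and 225.5 in WT with LPS, 974.5, 959.9 and 839.3 in untreated KO, and 817.4, 1009 and 566.9 in untreated WT. All LPS arrays lay below all untreated arrays. The difference was -1.59 in KO (log2, SE 0.23, limma adjusted p = 0.000159) and -1.33 in WT (SE 0.23, limma adjusted p = 0.000878), with an interaction of -0.26 (95% interval -0.96 to 0.43).

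Scarb1 encodes SR-BI, the receptor that exchanges cholesterol with high-density lipoprotein. It read 1131, 507.5 and 1109 in KO with LPS, 697.7, 682.4 and 737.4 in WT with LPS, 2601, 1879 and 2538 in untreated KO and 2127, 2077 and 2239 in untreated WT. KO replicate 2 was the lowest of its group with and without LPS, while the WT arrays lay close together. LPS lowered Scarb1 by 1.43 in KO (log2 difference -1.43, SE 0.25, limma adjusted p = 0.000702) and by 1.61 in WT (log2 difference -1.61, SE 0.25, limma adjusted p = 0.000457), and the interaction was 0.18 (95% interval -0.59 to 0.95). The calls of Stab1 and Scarb1 held in all 22 alternative fits in KO and all 21 in WT.

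Msr1, Cd36 and Marco encode the best known scavenger receptors of macrophages, and none of them was called between genotypes in either treatment. Msr1, which encodes scavenger receptor A, read 6061, 6326 and 5472 in KO with LPS, 6875, 7489.5 and 6381 in WT with LPS, 6739, 6644 and 7452 in untreated KO and 7396, 7616 and 7806 in untreated WT. The KO arrays lay below the WT arrays after LPS, where 14.2% of all genes did, at a difference of -0.22 (95% interval -0.40 to -0.03, limma adjusted p = 0.145). The LPS response in KO was called by a small margin (-0.22, limma adjusted p = 0.0458), passed with 1 array omitted only for LPS-treated WT replicate 2 or 3 or LPS-treated KO replicate 2 (-0.27 to -0.16 over the 12 such fits), did not pass in the block fit of the KO arrays (limma adjusted p = 0.114) and was -0.01 with arrays scaled to a common 75th percentile.

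Cd36, the fatty acid and oxidised lipoprotein receptor gene, read 2780.2, 4979 and 2918 in KO with LPS, 4130.5, 3061 and 2400 in WT with LPS, 3983, 6714 and 4527 in untreated KO and 4535, 5327 and 4478 in untreated WT. KO replicate 2 was the highest of its group with and without LPS. The difference with LPS was -0.53 in KO (limma adjusted p = 0.112) and -0.61 in WT (limma adjusted p = 0.102), neither of them called. In the block fit of the KO arrays the KO value passed (-0.53, limma adjusted p = 0.00218), and it also passed without LPS-treated KO replicate 2 (-0.80, limma adjusted p = 0.0181). The WT value passed in that fit (-0.61, limma adjusted p = 0.046) and in the fit of the 6 WT arrays alone (-0.61, limma adjusted p = 0.0357). The interaction was 0.08, with a 95% interval of -0.71 to 0.88.

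Marco, which encodes a bacteria-binding receptor of resident macrophages, had the largest standard error of the 10. It read 1502, 1327 and 1024 in KO with LPS, 1460.1, 1234 and 449.5 in WT with LPS, 1645, 1102 and 1010.3 in untreated KO and 1284, 934.7 and 247.1 in untreated WT. Both arrays of WT replicate 3 were the lowest of the 12. The intervals were wide, from -0.77 to 1.66 for KO against WT after LPS and from -0.34 to 2.09 untreated. Cd163, the haemoglobin-haptoglobin receptor gene, lay at 55.7 to 85.1 on all 12 arrays, below the array medians, and was called in no comparison. No detection call is given with these values, so whether Cd163 was above background was not assessed.

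LPS changed 5 of the 10 genes in KO, 2 higher and 3 lower, beside a background of 45.7% (21.9% higher and 23.8% lower). With the replicate block in the 6 KO arrays, 7 were called, with Cd36, Scarb2 and Gas6 gained and Msr1 lost, beside 42.1% of all genes. In WT it changed 4, 1 higher and 3 lower, beside 28.1% (9.53% higher and 18.5% lower). The LPS arrays lay wholly above the untreated arrays for 3 of the 10 in KO and 1 in WT (28.3% and 23.2% of all genes), and wholly below for 3 in KO and 4 in WT (25.5% and 24.3%). The median difference of the 10 was -0.17 in KO and -0.34 in WT, against 0.07 and 0.04 over all genes. Centring on the 75th percentile moved the median of all genes to 0.284 in KO and 0.193 in WT, and that of the 10 genes to 0.047 in KO and -0.185 in WT. Under that scaling 3 of the 10 were higher and 2 lower in KO, where 11026 and 3360 of all 19938 genes were. Scarb2 was called higher there (0.51) and Msr1 was not called. Mertk, Axl, Stab1 and Scarb1 kept their directions and calls in both genotypes.

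Other genes of the uptake pathway were described from lists. Among 18 other scavenger and lipoprotein receptors, 2 were higher and 1 lower in KO after LPS, beside 3.28% and 4.87% of all genes. Scarf1, which encodes a receptor for modified lipoproteins and apoptotic cells, read 1914, 1857 and 2100.2 in KO with LPS, against 893.4, 1206 and 664.1 in WT with LPS. That difference was 1.13 (SE 0.20, limma adjusted p = 0.0064), and untreated it was 0.54 (limma adjusted p = 0.48). Ssc5d, a secreted scavenger receptor gene, also passed (0.32, limma adjusted p = 0.0495), and the call was lost in 14 of 21 alternative fits, among them all but 1 of the 12 that left out 1 array (without LPS-treated KO replicate 1), at 0.26 to 0.41. Mrc1, the mannose receptor gene, was lower in KO both after LPS (-1.77, limma adjusted p = 0.000939) and untreated (-1.67, limma adjusted p = 0.022). The untreated call was lost without untreated WT replicate 1 (-1.72), 2 (-1.69) or 3 (-1.58) or untreated KO replicate 1 (-1.65) or 2 (-1.50). It was also lost in the fit of the untreated arrays alone (limma adjusted p = 0.0602). Markers of small peritoneal macrophages, monocytes and dendritic cells, 13 of 14 measured, also had a lower mean log2 level in KO in both treatments. Their mean log2 level was 7.84, 7.59 and 7.86 in KO with LPS, against 7.90, 7.96 and 8.01 in WT with LPS, and 7.69, 7.63 and 7.73 in untreated KO, against 8.15, 7.87 and 7.93 in untreated WT, with no overlap in either treatment. Cd209a averaged 113.6 in KO and 259.7 in WT after LPS, and 141.6 in KO and 558.6 in WT untreated, and Retnla was also lower in KO, while H2-Ab1 and Cd74 averaged higher in KO in both treatments. Summed intensities overlapped, at 11542 to 18960 in KO and 12722 to 13946 in WT after LPS. Ccr2 read near 26 in both LPS groups. The part of these cells in the Mrc1 result was not tested. LPS lowered Cd93, a C-type lectin-like receptor gene, in KO (-1.98) and in WT (-2.03). LPS raised 6 and lowered 4 of the 18 in KO (all genes 21.9% and 23.8%), and raised 4 and lowered 5 in WT (all genes 9.53% and 18.5%). After centring on the 75th percentile it raised 10 and lowered 3 in each genotype. Of all 19938 genes, it then raised 11026 and lowered 3360 in KO, and raised 7416 and lowered 2774 in WT.

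Of 19 phosphatidylserine receptors, bridging proteins and opsonins, 1 was called between genotypes after LPS, beside 8.14% of all genes. This was Mfge8, the bridging protein gene for αv integrins, at 525.7, 498.1 and 636.8 in KO with LPS against 420.6, 439.0 and 420.5 in WT with LPS (0.37, limma adjusted p = 0.0323). Its call was lost without LPS-treated WT replicate 1 (0.36) or 3 (0.36) or LPS-treated KO replicate 3 (0.26). LPS lowered the inhibitory receptor gene Cd300a (-2.67 in KO and -2.44 in WT) and the integrin gene Itgb5 (-1.68 and -1.31), and raised Itgav (1.18 and 1.06) and Tgm2 (1.09 and 1.47), in KO and in WT. KO replicate 2 had the highest Cd300a of its group, at 328.9 against 170 and 165.9 with LPS and 1966 against 1155 and 1057 untreated. It had the lowest Itgb5, at 384.5 against 683.1 and 833.2 with LPS and 1175 against 2634 and 2330 untreated. Both KO calls held in all 22 alternative fits. Timd4, a phosphatidylserine receptor gene and a marker of large peritoneal macrophages, was singled out after its values were seen. It read 719.3, 2608 and 1156 in KO with LPS, against 325.7, 384.3 and 372.3 in WT with LPS, and 313.4, 1646 and 407.0 in untreated KO, against 289.6, 162.6 and 175.4 in untreated WT. KO replicate 2 was far the highest, the groups did not overlap, and neither difference passed (1.85, limma adjusted p = 0.0721, and 1.56, limma adjusted p = 0.47).

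In the list of engulfment machinery, 16 genes were measured, of which 1 was higher and 3 were lower in KO after LPS (all genes 3.28% and 4.87%). Rac2 read 2247, 2527 and 2410.2 in KO with LPS, 6038, 5932 and 6682 in WT with LPS, 4661, 4589 and 4390.0 in untreated KO and 5047, 4438 and 4701 in untreated WT. As with Mertk, the untreated groups overlapped and the LPS groups lay on opposite sides of them, here with KO below. LPS lowered it in KO (-0.93, limma adjusted p = 3.41e-06) and raised it in WT (0.39, limma adjusted p = 0.0023), with an interaction of -1.32 (SE 0.11, limma adjusted p = 0.000334). Elmo1, a partner of DOCK proteins that activate Rac, was higher in KO after LPS (0.60, limma adjusted p = 0.0125), a call lost without LPS-treated WT replicate 1 (0.56). Cd47 (-0.47, limma adjusted p = 0.0114) and Sirpa (-0.46, limma adjusted p = 0.0365), which encode the don't-eat-me signal and its receptor, were lower. Leaving out 1 array ended the Sirpa call 7 times (LPS-treated WT replicates 1 and 3, untreated WT replicates 1, 2 and 3, LPS-treated KO replicate 3 and untreated KO replicate 1), at -0.46 to -0.30, and after centring on the 75th percentile (-0.40). LPS lowered 8 and raised 1 of the 16 in KO, and lowered 9 and raised 3 in WT, with medians of -0.27 and -0.40, where 23.8% of all genes were lower and 21.9% higher in KO, and 18.5% and 9.53% in WT. Centred on the 75th percentile, it lowered 7 and raised 4 in KO (median -0.056) and lowered 7 and raised 3 in WT (median -0.249). Of all 19938 genes, 3360 were then lower and 11026 higher in KO (median 0.284), and 2774 and 7416 in WT (median 0.193). Dnase2a, whose enzyme digests engulfed DNA, fell by 1.18 in KO and by 0.89 in WT.

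Of 14 cholesterol and lipid handling genes measured, 7 were lower and 1 higher with LPS in KO (median -0.51), where 23.8% and 21.9% of all genes were, and 6 were lower and none higher in WT (median -0.47, with 8 at an unadjusted limma p under 0.05), where 18.5% and 9.53% were. Nceh1, a cholesteryl ester hydrolase gene, differed by -2.15 in KO and -2.83 in WT, Fabp5 by -1.37 and -1.57, and the cholesterol exporter gene Abcg1 by -1.25 and -1.35. Centred on the 75th percentile, LPS lowered 7 and raised 1 of the 14 in KO (median -0.295), and lowered 6 and raised 1 in WT (median -0.316). Of all 19938 genes, 3360 were then lower and 11026 higher in KO (median 0.284), and 2774 and 7416 in WT (median 0.193). Between genotypes after LPS, as deposited, 1 of the 14 was higher and 1 lower in KO, beside 3.28% and 4.87% of all genes. Nceh1 was the higher one (0.75, limma adjusted p = 0.00807) and Abca7 the lower one (-0.48, limma adjusted p = 0.00579). Neither passed the interaction (limma adjusted p = 0.152 for Nceh1 and 0.144 for Abca7).

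Among 15 transcription factors known to act on uptake receptor genes, 1 was higher and 2 were lower in KO after LPS (all genes 3.28% and 4.87%). The higher one was Klf4, a zinc-finger factor of monocytes and macrophages. Among the protein-coding genes compared, Klf4 was also the most like Mertk over the 12 arrays (Pearson r = 0.961 across arrays of 4 groups, given as a description). It read 440.2, 668.4 and 533.5 in KO with LPS, 190.15, 274.5 and 211.9 in WT with LPS, 280.7, 386.6 and 379.0 in untreated KO and 370.7, 361.7 and 343.3 in untreated WT. LPS raised it in KO (0.64, limma adjusted p = 0.0105) and lowered it in WT (-0.69, limma adjusted p = 0.011). Its interaction of 1.33 (SE 0.25, limma adjusted p = 0.0361) passed in 11 of 20 alternative fits, at adjusted p from 0.0127 to 0.123. With 1 array left out, it passed without LPS-treated WT replicate 2, LPS-treated KO replicate 1 or 2 or untreated KO replicate 2, and was lost without each of the other 8 arrays (1.18 to 1.40). The WT response was lost without LPS-treated WT replicate 1 (-0.57). Rxra (-0.76, limma adjusted p = 0.00535) and Cebpa (-0.55, limma adjusted p = 0.0289) were lower in KO after LPS. The Cebpa call was lost without any 1 of the LPS-treated WT arrays or LPS-treated KO replicate 2 or 3 (-0.60 to -0.48). LPS lowered Cebpa in KO (-3.03) and in WT (-2.17).

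**Figure D4:**
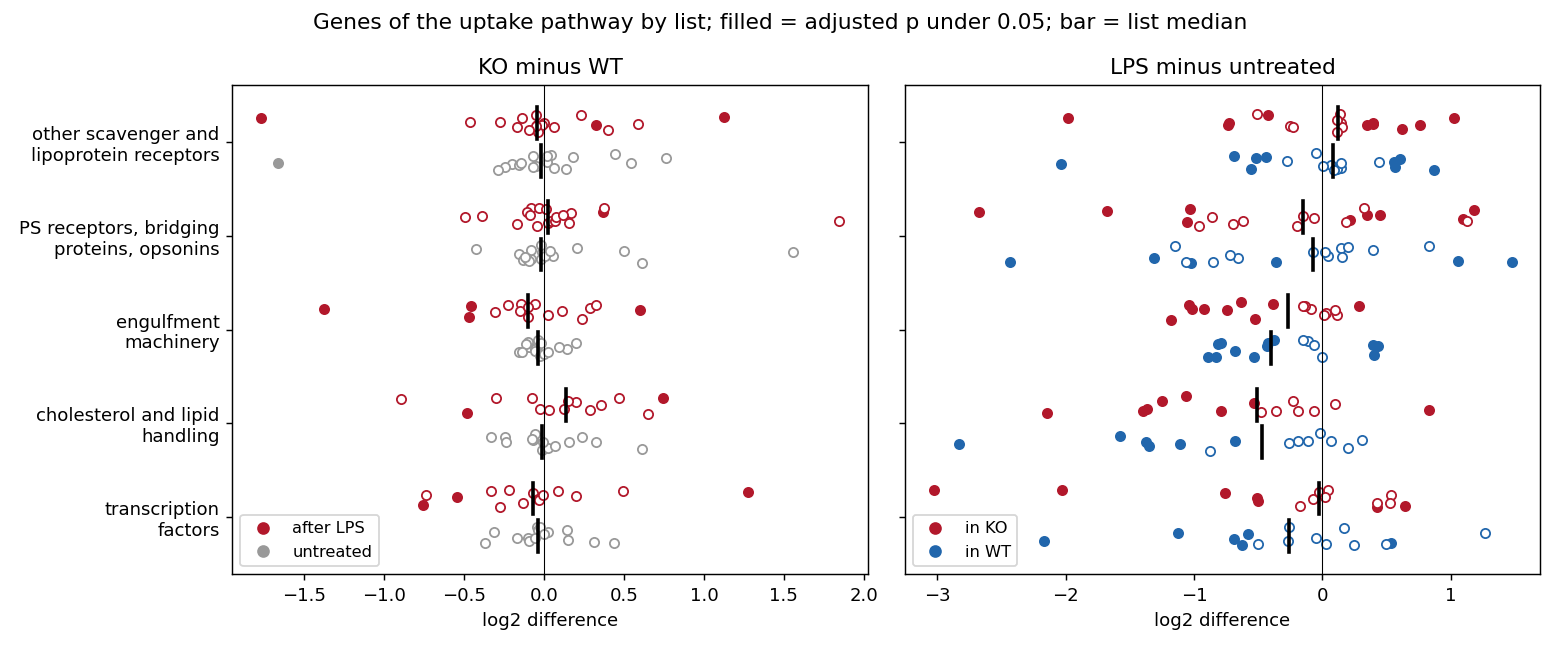
Log2 differences of the genes in 5 uptake pathway lists (rows), KO minus WT after LPS and untreated (left) and LPS minus untreated in KO and in WT (right), with filled points for adjusted p under 0.05 and bars at list medians. The point farthest left in the KO minus WT panel after LPS is Mrc1 at -1.77, and the lipid handling medians lie at -0.51 in KO and -0.47 in WT on the right.

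Of 7 glucocorticoid-responsive genes, 1 was called between genotypes after LPS, beside 8.14% of all genes. This was Zfp36, higher in KO (0.73, limma adjusted p = 0.0196). It did not pass without LPS-treated WT replicate 1 (0.72) or 3 (0.55) or LPS-treated KO replicate 3 (0.65). Nor did it pass in the fit of the 6 LPS arrays alone (limma adjusted p = 0.0985). LPS raised 2 and lowered 1 of the 7 in KO (median 0.30, all genes 21.9% and 23.8%). In WT it raised 1 and lowered 1 (median 0.275, all genes 9.53% and 18.5%). Tsc22d3 fell in KO (-1.53) and in WT (-0.95), Dusp1 rose in both (0.87 and 0.56), and Zfp36 rose in KO (1.25). By the same measure of likeness over the 12 arrays, Axl was most like Ddx60 (r = 0.96), Scarb1 like Rgs2 (0.984), Stab1 like Aldh16a1 (0.974), Cd36 like H2bc4 (0.954) and Scarb2 like Taok3 (0.952). For Gas6 it was Cacna1a (0.94), for Cd163 Bahd1 (0.903), for Msr1 Fyb (0.895) and for Marco Eps8l1 (0.869). All these values pool 4 groups that differ in level.

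Markers of other peritoneal cells were summed per array. Mast cell markers, 7 of 7 measured, reached 1932 to 7647 in KO with LPS, 7549 to 8798 in WT with LPS, 1024 to 2983 in untreated KO and 1134 to 1181 in untreated WT. Most of the LPS values came from Hdc, at a mean of 4170.1 in KO and 7552 in WT. The other 6 markers averaged higher in KO in both treatments, among them Mcpt4 (333.4 in KO and 92.6 in WT after LPS), Cpa3 (294.7 and 138.4) and Tpsb2 (439.0 and 271.1). The KO arrays differed among themselves. The mean log2 level of all 7 was 8.10, 6.99 and 8.67 in KO with LPS, against 7.325, 7.80 and 7.60 in WT with LPS. Untreated it was 7.50, 6.90 and 8.21 in KO, against 6.96, 7.08 and 6.92 in WT. KO replicate 2 lay below every WT array of the same treatment. Mesothelial and fibroblast markers, 12 of 12 measured, summed to 1426 to 1644 in KO with LPS and 1597 to 1709 in WT with LPS. Untreated they did not overlap, at 1272 to 1345 in KO and 1391 to 1598 in WT. T and NK cell markers, 8 of 9 measured and mostly below the median probe set, summed to 648 to 697 in KO and 587 to 610 in WT after LPS. Untreated, these overlapped, at 609 to 655 in KO and 548 to 657 in WT. B cell markers, 8 of 9 measured, summed to 1025 to 1556.5 in KO with LPS and 1258.5 to 1589 in WT with LPS, and untreated to 1268 to 2089 in KO and 1557 to 2302 in WT. The part of these cells in the genotype differences was not tested.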

How the data were processed

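RNA of 12 arrays was measured, and groups and replicate numbers were taken from the sample titles. The authors deposited 1 linear intensity per probe set and array, and per the submitters' processing notes the software was Affymetrix Expression Console 1.1 and the method RMA. Of 35556 probe sets, 21789 carried 1 gene symbol in the platform annotation, 1621 several and 12146 none. Of the 21789, 21698 had a gene identifier found in a RefSeq gene table. The probe set with the highest mean stood for each of 19938 genes. Log2 intensities of all genes in all 12 arrays were fitted with lmFit and eBayes (limma 3.58.1, R 4.3.3), with 1 mean per group and 5 contrasts, Benjamini-Hochberg adjustment over all genes and a threshold of 0.05. The procedure was tried on simulated data with independent noise and differences planted in brighter genes only. Those data held no deviations shared across an array, so the trial does not cover arrays that stand apart, as some did here. The number of arrays, 3 per group, limits the precision, and arrays of a group correlated at 0.984 to 0.994. KO against WT contrasts share arrays with the LPS contrasts and with the interaction.

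Same-numbered arrays deviated together in every pair only for LPS-treated against untreated KO cells (r = 0.322, 0.568 and 0.459), so the replicate block was applied to those arrays, a fit added after seeing the data. In the other pairs r was -0.197 to 0.359. The text names all 10 genes, Nfkbiz and the gene most like each of the 10. That gene was sought among protein-coding genes only, with predicted genes, clone-type names and olfactory and vomeronasal receptors left out. From each pathway list and contrast, up to 4 called genes with the largest differences were picked out. Only a part of these is named. The genes and lists were chosen with earlier results of these data known. Alternatives were array scaling (75th percentile, quantile), a pseudocount of 16, a filter on dim genes, the variance model, the block, the samples fitted, all probe sets, and leaving out each array.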

Additional observations from a re-analysis of the deposited data

Results flagged for a closer look

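The 3 genes given here were picked because they passed the interaction, the test of the difference between both LPS responses (limma, adjusted over all genes). They were 1 of the 10 genes, 1 of 16 engulfment genes and 1 of 15 transcription factors, beside 0.747% of all genes. In the other lists no gene passed. The response in KO minus that in WT was 1.27 for Mertk (limma adjusted p = 0.0053), -1.32 for Rac2 (limma adjusted p = 0.000334) and 1.33 for Klf4 (limma adjusted p = 0.0361). The Klf4 call was lost in 9 of 20 alternative fits. In each of the 3 genes the LPS-treated KO and WT arrays lay on opposite sides of the untreated group means.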

How the results depend on the processing

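No named result changed sign past the threshold in any alternative. The calls of Mertk, and those of Stab1 and Scarb1 with LPS, held in every fit, and Mertk in KO against WT after LPS lay at 1.17 to 1.40 with 1 array left out. Without LPS-treated WT replicate 3, only 1 of the 10 genes was called between KO and WT after LPS, and without LPS-treated WT replicate 2, 2 were called in the interaction. With 1 array left out, the number of the 10 called was 1 to 4 for KO against WT after LPS, 0 to 0 untreated, 4 to 6 for LPS in KO, 3 to 5 for LPS in WT and 1 to 2 in the interaction. The replicate block over all 12 arrays gave 3 called after LPS, 0 untreated, 4 for LPS in KO, 4 for LPS in WT and 1 in the interaction, and ended only the Msr1 call in KO (adjusted p = 0.0614). In the 6 KO arrays alone, where same-numbered arrays deviated together, the block was chosen after seeing the data, and the labels state no pairing. It gave 7 called, with Cd36, Scarb2 and Gas6 gained and Msr1 lost.

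Over all genes, the count for KO against WT after LPS was 1623, 492 with the 6 LPS arrays alone, 655 without the 2 arrays of deviating interferon-stimulated level, and 712 to 2158 with 1 array left out. Untreated it was 15, 2 with the untreated arrays alone, 24 after quantile normalization, 30 with the replicate block and 6 to 23 with 1 array left out. The interaction called 149, 45 without those 2 arrays, and 55 to 365 with 1 array left out. Centring on the 75th percentile raised the calls with LPS to 14386 in KO (76.6% higher, against 47.9% as deposited) and 10190 in WT (72.8% against 34%). Between genotypes it moved untreated calls to 25. It moved the share called higher to 52.6% from 40.2% between genotypes after LPS, and to 55.6% from 40.3% in the interaction. Quantile normalization gave 44.5% in WT with LPS. Cd163 was left out by the filter on dim genes. No detection calls came with the values, so how far Cd163 and Gas6 stood above background was not assessed.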
